A study of Mus musculus with 6 samples.

Results

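A small set of CpG-poor stretches of the mouse genome carried little DNA methylation in 3 kinds of mouse pluripotent stem cell, while the median CpG-poor stretch was at 92.3% in the most methylated of them. The set was selected on its own levels. The genome was cut into tiles of 2 kb, and a tile was kept as CpG-poor where it lay on chromosomes 1 to 19, held at most 40 CpG positions, did not adjoin a tile with over 80 positions and had at least 40 summed CpG reads in every library. A CpG-poor tile became a member where the mean level, methylated reads over all reads, was under 30% both in advanced pluripotent stem cells (ASCs) and in epiblast stem cells (EpiSCs). This rule chose 1341 members out of 393108 CpG-poor tiles, or 0.341%, and out of 445422 tiles tested in all. The ASC and EpiSC levels of the members are therefore given as a description, and no test of them is read as support. The level in embryonic stem cells (ESCs) played no part in the choice.

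Whole-genome bisulfite sequencing was performed on 6 libraries, 2 per group, described by the labels as biological replicates. By the labels all groups were wild type and of strain 129S2/SvPasCrl, and the study names the lines analysed for methylation as female. The study's methods, in contrast, derive its lines from 129/sv mothers and reporter-transgenic fathers of mixed background, and which of these holds for the sequenced lines is not stated. ASCs were blastocyst-derived lines kept in ABCL medium (activin A, BMP4, CHIR99021 and LIF), ESCs were kept in 2i/LIF, which holds them in a naive state, and EpiSCs are in the primed state of the post-implantation epiblast. The label for cell type reads embryonic stem cells in all 6 samples, so the groups rest on the sample titles and source names. These libraries measure methylation alone, so the cell types were not checked against expressed markers. Each library held between 63803799 and 74925271 reads over CpG positions, a mean of 2.96 to 3.46 reads per position. A level in such a bulk library is an average over cells and alleles, and a share of cells with full methylation cannot be told apart from partial methylation in every cell.

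Cytosine in CpG dinucleotides is methylated by DNA methyltransferases over most of the mammalian genome. CpG islands, which are dense in CpG and often hold gene starts, stay free of it, and so do many distal regulatory elements where transcription factors are bound. Methylation is lost over most of the genome in naive cells and regained in primed cells, so sequence that stays low in both states is uncommon outside CpG islands.

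Sequence from 8 members is shown first because it carries the match to 1 of 2 motifs of factors that bind regulatory DNA outside CpG islands. REST is a repressor of neuronal genes and CTCF is an insulator protein that organises chromosome loops. The sequences were read from the GRCm38 (mm10) assembly, in the direction of the motif, with 60 bases on each side, and the capitals mark the match. Each is named by the nearest protein-coding gene.
REST match near Snap25, chr2:136714278-136714414, plus strand: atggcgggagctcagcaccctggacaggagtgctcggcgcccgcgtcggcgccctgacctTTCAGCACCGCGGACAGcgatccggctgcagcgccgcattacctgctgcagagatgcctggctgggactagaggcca
REST match near Gm39653, chr1:63614739-63614875, plus strand: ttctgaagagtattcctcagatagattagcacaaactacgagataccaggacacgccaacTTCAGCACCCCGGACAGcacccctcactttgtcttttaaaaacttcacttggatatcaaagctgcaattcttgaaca
REST match near Mat2b, chr11:40600622-40600758, minus strand: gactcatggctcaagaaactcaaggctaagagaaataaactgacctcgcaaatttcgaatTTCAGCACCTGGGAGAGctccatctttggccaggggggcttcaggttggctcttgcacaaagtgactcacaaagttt
REST match near Lin28a, chr4:134020770-134020906, minus strand: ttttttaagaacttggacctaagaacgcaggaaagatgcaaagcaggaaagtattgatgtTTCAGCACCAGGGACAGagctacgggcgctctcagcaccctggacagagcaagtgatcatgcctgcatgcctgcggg
CTCF match near Itga7, chr10:128935532-128935663, plus strand: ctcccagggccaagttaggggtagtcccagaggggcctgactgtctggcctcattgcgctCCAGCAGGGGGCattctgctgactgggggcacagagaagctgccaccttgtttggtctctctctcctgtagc
CTCF match near Slc2a3, chr6:122740076-122740207, plus strand: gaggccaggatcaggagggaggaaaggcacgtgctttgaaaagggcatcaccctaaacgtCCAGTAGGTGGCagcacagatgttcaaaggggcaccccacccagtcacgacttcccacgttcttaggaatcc
CTCF match near Nifk, chr1:118321686-118321817, plus strand: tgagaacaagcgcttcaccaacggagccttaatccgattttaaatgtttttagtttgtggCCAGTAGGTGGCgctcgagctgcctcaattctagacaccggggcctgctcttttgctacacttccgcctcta
CTCF match near 1700001O22Rik, chr2:30717368-30717499, plus strand: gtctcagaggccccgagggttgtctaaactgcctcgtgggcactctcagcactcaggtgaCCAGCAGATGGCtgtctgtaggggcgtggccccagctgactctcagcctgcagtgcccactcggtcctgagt

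The stretch at Snap25, which encodes a neuronal protein of synaptic vesicle release, held no methylated read in any library, out of 22 to 110 reads per library. A count of 0 allows a level of up to 13.6% at 22 reads and up to 2.73% at 110 reads. A read is counted once at each CpG it covers, and this stretch holds 13 CpGs. Such limits take these counts as independent, so they are too narrow. The stretch at Nifk also held none, out of 24 to 54 reads. At Slc2a3, which encodes a glucose transporter, the level was 0% in both ASC and both ESC libraries, 9.09% in EpiSC replicate 1 and 11.8% in EpiSC replicate 2, with 6 to 34 reads. A count of 0 at 6 reads allows up to 50%, so ASCs and EpiSCs cannot be told apart there. The stretch near Itga7 holds a single CpG, which was at 83.3% and 100% in the ASC libraries, at 100% in both EpiSC libraries and at 0% in both ESC libraries, with only 3 to 6 reads per library. The stretches near Gm39653, Mat2b and Lin28a held between 0 and 15 reads per library, and like that near Itga7 they are too shallow to read. The stretch near 1700001O22Rik was at 13.9% and 6.98% for ASCs, 0% and 5.56% for ESCs and 0% in both EpiSC libraries, with 18 to 51 reads.

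Sequence is also shown for 2 stretches at genes of the pluripotency network, since these are among the members that the results below return to. Pou5f1 (Oct4) and Sox2 encode the transcription factors that hold pluripotency in all 3 cell types. Each stretch is the 200 bases of its member with the most CpGs, read on the plus strand with every CpG that lies whole within it in capitals. The stretch upstream of Pou5f1 ends on the C of a further CpG, so that 8 of the 9 CpG positions behind its levels are marked.
Upstream of Pou5f1, chr17:35505739-35505938, plus strand: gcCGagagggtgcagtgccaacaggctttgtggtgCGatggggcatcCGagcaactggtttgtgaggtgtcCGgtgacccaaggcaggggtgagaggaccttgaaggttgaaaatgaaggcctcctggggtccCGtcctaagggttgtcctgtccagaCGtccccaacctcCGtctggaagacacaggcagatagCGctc
Far downstream of Sox2, chr3:34757788-34757987, plus strand: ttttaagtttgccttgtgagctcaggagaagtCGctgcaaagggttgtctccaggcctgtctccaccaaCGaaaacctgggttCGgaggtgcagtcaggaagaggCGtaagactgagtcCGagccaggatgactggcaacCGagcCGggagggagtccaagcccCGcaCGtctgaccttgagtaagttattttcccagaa

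The stretch upstream of Pou5f1 was at 2.33% and 0% in the ASC libraries, at 0% in both ESC libraries and at 0% and 1.75% in the EpiSC libraries, with 31 to 86 reads. The stretch downstream of Sox2 was at 0% in all ASC and ESC libraries and at 1.85% and 4.35% in the EpiSC libraries, with 23 to 54 reads. Both were thus nearly free of methylation in every library.

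Taken over all members, levels were lowest in ESCs and highest in EpiSCs. The pooled level was 11.8% ± 0.150 for ASCs, 3.58% ± 0.0344 for ESCs and 18.5% ± 0.518 for EpiSCs (SD, n = 2 each). Over all CpG-poor tiles it was 65.9% ± 0.203, 20.8% ± 0.259 and 90.0% ± 0.0709 (SD, n = 2 each). The gap between members and all CpG-poor tiles in ASCs and EpiSCs is what the rule asked for. ESC levels were not used, but tiles low in ASCs alone were also low in ESCs, as given below. The ESC gap is therefore not independent of the rule. By library, the median member was at 10.6% and 10.7% in the ASC libraries, at 2.88% and 2.78% in the ESC libraries and at 19.1% and 18.6% in the EpiSC libraries.

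**Figure D1:**
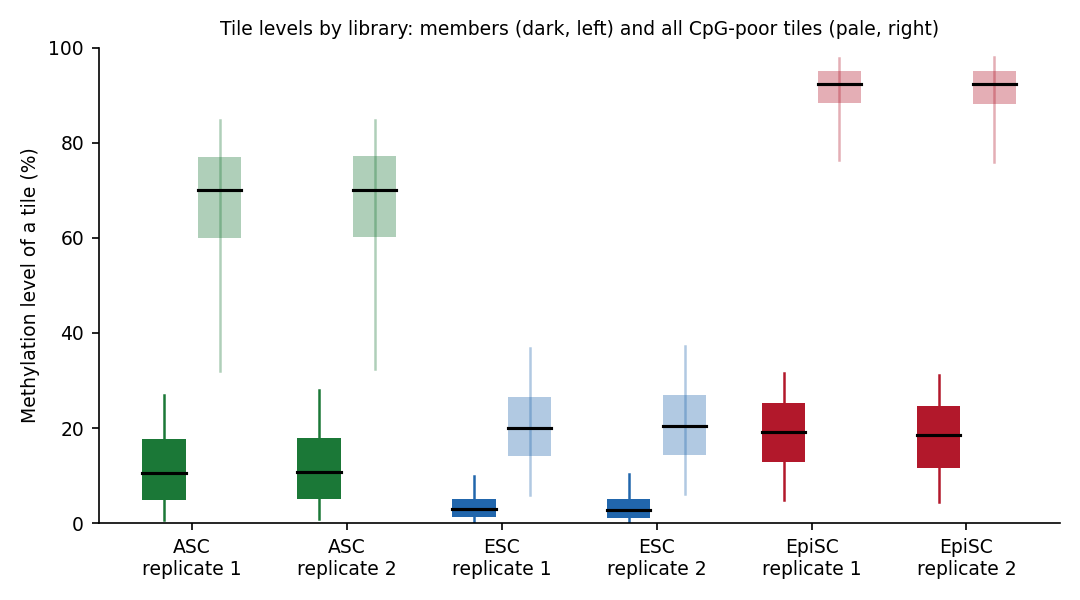
Methylation level of a tile (%) in each library, for the 1341 members (dark, left) and all 393108 CpG-poor tiles (pale, right). The black line is the median, the box spans the quartiles and the thin line the 5th to 95th percentile. In every library the upper quartile of the members lies below the lower quartile of all CpG-poor tiles, in the ESC libraries at 5.13% and 5.15%.

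ESC levels of the members fell in a narrow range, from 0% to 18.2% with a median of 2.96% over the members' means. No member had an ESC mean of 20% or more, though single ESC libraries reached 23.4%. The ESC mean was under 5% in 991 members (73.9%), against 3.04% of all CpG-poor tiles, and under 1% in 221 members. CpG-poor tiles that were low in ASCs alone, 15396 in number, had an ESC mean under 5% in 52.1%, and tiles low in neither, 376086 in number, in 0.778%. The 285 tiles low in EpiSCs alone had it in 4.21%. Median ESC levels were 2.83% ± 0.0755 in members, 4.61% ± 0.0125 in tiles low in ASCs alone, 11.4% ± 0.124 in tiles low in EpiSCs alone and 20.8% ± 0.252 in tiles low in neither (SD, n = 2 each). In ESCs the members were thus the lowest of the 4 sets and the tiles low in ASCs alone came next. The gaps were beyond the spread between libraries, which does not measure the spread between tiles.

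A level of exactly 0 was not rare among the members. No methylated read was found in 138 and 161 members in the ESC libraries, in 61 and 56 in the ASC libraries and in 7 and 5 in the EpiSC libraries. Over all CpG-poor tiles the EpiSC libraries also held 7 and 5 tiles without a methylated read, so that all of these were members, while the ESC libraries held 1421 and 1457. The median member had 104 to 132 reads in a library. At that depth 11 methylated of 107 reads has a 95% Wilson interval from 5.84% to 17.5%, and 25 of 132 reads from 13.2% to 26.5%. At the minimum of 40 reads a level of 10% spans 3.96% to 23.1%, and a count of 0 allows up to 7.5%. These intervals cover counting error only. They also take the counts as independent, though a read is counted once at each CpG it covers, so they are too narrow.

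The order of the 3 groups was ESC below ASC below EpiSC in 981 members (73.2%). EpiSCs were below ASCs but above ESCs in 252 members (18.8%). ASCs were below ESCs and ESCs below EpiSCs in 72 members, and EpiSCs were below ESCs and ESCs below ASCs in 33. Replicates differed by 4.09 percentage points on average for ASCs, 2.04 for ESCs and 5.26 for EpiSCs, as much as many of the gaps between groups in single members. Both ASC libraries lay below both EpiSC libraries in 775 members (57.8%), against 95.2% of all tiles, and both EpiSC libraries lay below both ASC libraries in 148 members (11.04%), against 0.639%. Both ESC libraries lay below both ASC libraries in 1076 members, against 98.3% of all tiles, and below both EpiSC libraries in 1260, against 99.5%.

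Calls needed an adjusted p under 0.05 and a difference of at least 20 percentage points. ASCs were called higher than ESCs in 65 members, against 91.1% of all tiles tested, and EpiSCs higher than ESCs in 389 members, against 96.5%. ASCs were called lower than EpiSCs in 86 members, against 53.5% of all tiles, and higher in 6 members, against 0.100%. No member was called lower in ASCs or in EpiSCs than in ESCs, against 0 and 4 of all tiles. Such a call needs an ESC mean of at least 20%. The highest ESC mean of a member was 18.2%, so none was possible by any fit. Without the minimum of 20 points, 2 and 10 members were lower at an adjusted p under 0.05, and as many at an unadjusted p under 0.05. The rule holds ASC and EpiSC levels under 30%, so these counts describe the members and nothing is read from them. The comparisons share libraries. The difference alone decided the calls, since 65, 389 and 92 members passed 20 points for ASC against ESC, EpiSC against ESC and ASC against EpiSC, the same numbers as were called. At an adjusted p under 0.05 alone there were 892, 1201 and 690. Shares over all tiles without the minimum difference were not counted, so nothing is read from these numbers. The median difference was 7.38 points for ASC minus ESC, 15.6 for EpiSC minus ESC and -6.53 for ASC minus EpiSC, against 46.5, 69.7 and -20.9 over all tiles.

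**Figure D2:**
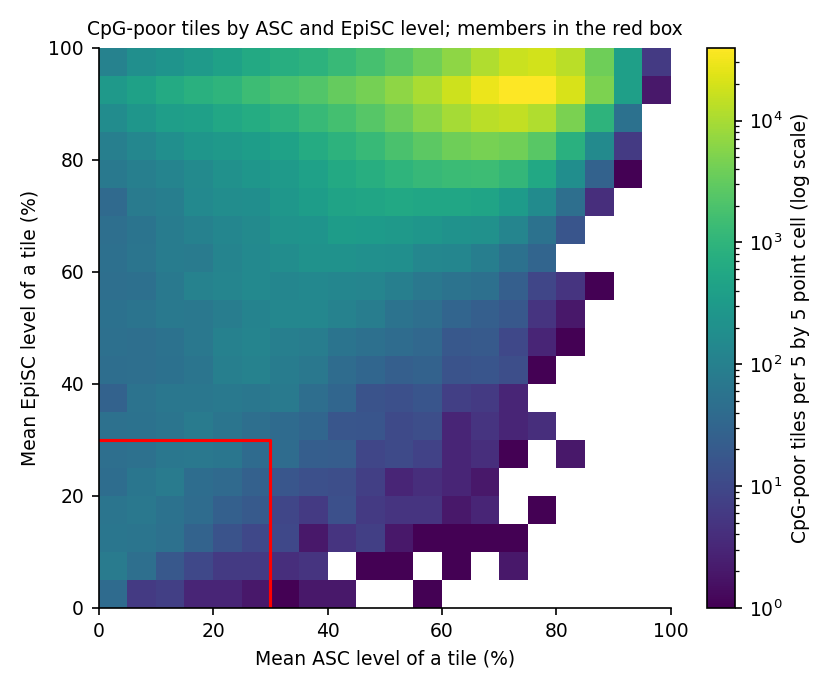
Number of CpG-poor tiles (log colour scale) by mean ASC level and mean EpiSC level (%), in cells of 5 by 5 points, with the members inside the red box. Most tiles lie at the top right, and the members form the lower left corner of a band that runs up the left side, where tiles are low in ASCs alone.

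The limit of 30% cuts through a continuous range. Limits of 10%, 20%, 40% and 50% would have chosen 168, 633, 2370 and 3879 tiles. The members just inside it lay beside Arhgap11a, with an EpiSC mean of 29.98%, beside Mief1, also with an EpiSC mean of 29.98%, and near Optc, with an ASC mean of 29.97%. The tiles just outside held the start of Rbbp9, or lay beside Abca1, which encodes a lipid transporter, and near Irf2bp2, and their larger means were 30.01%, 30.02% and 30.04%. The EpiSC libraries were at 37.1% and 22.9% at Mief1 and at 36.3% and 23.8% near Irf2bp2, so the order around the limit is within replicate spread.

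Members were at the upper end of the CpG-poor range. They held a median of 32 CpG positions, against 22 in all CpG-poor tiles, and 807 members (60.2%) held 31 to 40. In that class 1.36% of CpG-poor tiles were members, against 0.253% of the tiles with 21 to 30 positions and 0.0558% of those with 11 to 20. The rule holds the ASC and EpiSC means of every member under 30%, so nothing is read from how alike they were across these classes. Median levels were 10.95% for ASCs and 20.2% for EpiSCs for the 87 members with 11 to 20 positions. For those with 31 to 40 they were 10.4% and 18.7%. ESC levels were not used by the rule. Their median was 3.42% ± 0.124 with 11 to 20 positions. It was 2.70% ± 0.0451 with 21 to 30 and 2.82% ± 0.0975 with 31 to 40. The first lay above the others by more than this SD between libraries, which does not measure the spread between tiles. The difference was not tested. GC content was much alike, with medians of 46.55% in members and 45.55% in all CpG-poor tiles, as were the share of repeat-masked bases (20.2% and 20.8%) and the reads per CpG (23.25 and 24.7).

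The CpGs of a member were unevenly placed, and methylation was lowest where they were close together. The densest 300 bp stretch of a member held a median of 14 CpGs, against 8 in all CpG-poor tiles, and these stretches held 45.2% of all CpG positions of the members. Their pooled level was 2.75% ± 0.0338 for ASCs, 1.37% ± 0.0479 for ESCs and 4.47% ± 0.0101 for EpiSCs (SD, n = 2 each). The rest of the same tiles was at 19.6% ± 0.0780, 5.74% ± 0.0424 and 33.6% ± 0.716. In all CpG-poor tiles the densest stretch and the rest hardly differed, at 64.8% and 66.6% for ASCs, 20.1% and 21.2% for ESCs and 90.0% and 90.0% for EpiSCs. Pooled over the members, the groups thus differed more in the rest of the tile than in its densest stretch. The rule held the whole tile low in ASCs and EpiSCs, and the densest stretch weighs heavily in that level. It therefore favours tiles whose densest stretch is low, and the contrast with all CpG-poor tiles is a description that was not tested.

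**Figure D3:**
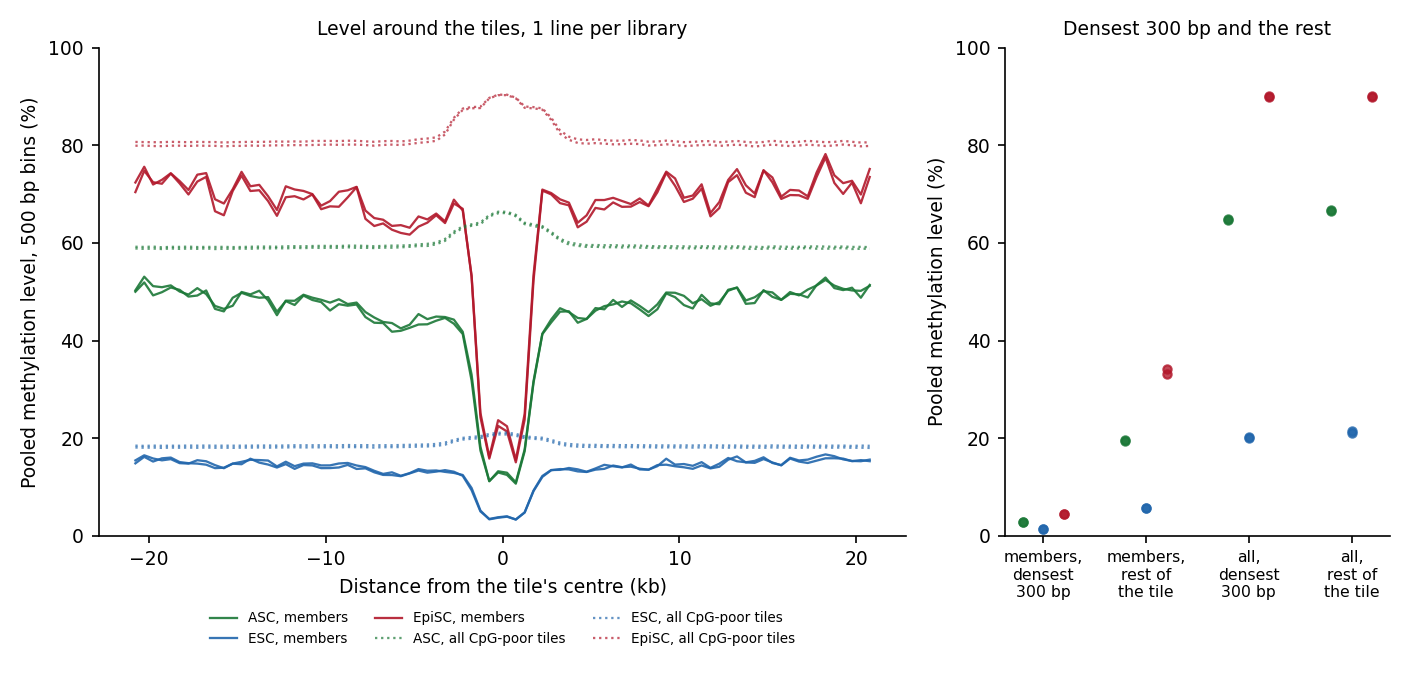
Left, pooled level (%) in 500 bp bins up to 20 kb from the tile's centre, 1 line per library, for members (solid) and all CpG-poor tiles (dotted). Right, pooled level (%) of the densest 300 bp stretch and of the rest of the tile, 1 point per library. The members sit in a dip in all groups, and EpiSC lines rise to 69.1% within 2 to 3 kb of the centre.

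Levels rose outside the members. A tile ends 1 kb from its centre, and between 1 and 2 kb levels were at 23.6% ± 0.523 for ASCs, 6.66% ± 0.130 for ESCs and 35.2% ± 0.763 for EpiSCs (SD, n = 2 each). Between 2 and 3 kb they were at 42.7% ± 0.354 for ASCs, 12.8% ± 0.0286 for ESCs and 69.1% ± 0.155 for EpiSCs (SD, n = 2 each), and between 10 and 20 kb at 49.1% ± 0.217, 15.02% ± 0.204 and 71.0% ± 0.682. The wider surroundings were below those of all CpG-poor tiles, which had 59.1%, 18.3% and 80.4% at the same distance. Inside the tile the dip had its floor toward the ends. The outer 500 bp at each end were at 15.6% in EpiSCs and the central 1 kb at 22.5%. The 558 members with no protein-coding start within 5 kb had the opposite shape, with 16.9% in the centre and 21.3% at the ends.

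Most members had no adjoining member. There were 1237 single members and 52 adjoining pairs, and no run was longer. Members were only 0.341% of CpG-poor tiles, and the number of pairs expected by chance was not computed. It is thus not known whether pairs were few or many. Tiles of over 40 CpGs could not be members. Of 1828 adjoining tiles with enough reads, 938 (51.3%) were CpG-poor and low in neither ASCs nor EpiSCs, with medians of 60.5% for ASCs, 17.0% for ESCs and 90.5% for EpiSCs. Another 563 (30.8%) held over 40 CpGs and were at 7.51%, 2.05% and 13.2%, lower than the members themselves. A further 272 were low in ASCs alone, at 17.3%, 4.27% and 69.9%. An adjoining tile of 41 to 80 CpGs stood beside 534 members (39.8%), against 8.83% of all CpG-poor tiles, so a good part of the members were the edges of denser low stretches.

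Of the adjoining pairs, the first 3 by position illustrate the range. On chromosome 1 the pair at chr1:171034001-171038000 held tRNA genes and ranged from 5.05% to 13.3% in the ASC and EpiSC libraries. On chromosome 2 a pair within Stk39, which encodes a kinase, ranged from 10.6% to 27.2% in those libraries. The pair at the start of Zmynd8, a reader of modified histones, was at 0.680% and 3.12% in ASCs against 10.6% and 17.9% in EpiSCs in the tile with the start, and at 5.13% and 1.96% against 24.2% and 20.7% in the next. In both Zmynd8 tiles the ASC and EpiSC libraries did not overlap.

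Gene starts were frequent among the members. By GENCODE M21, 396 members (29.5%) held the start of a protein-coding transcript and 267 (19.9%) lay within 1 kb of one, against 1.60% and 1.95% of all CpG-poor tiles. Of CpG-poor tiles that held a coding start, 6.29% were members, 811 were low in ASCs alone and 5053 were low in neither. Another 91 members held the start of a non-coding or tRNA gene, 82 touched an exon, 205 lay in introns and 300 between genes. Levels differed between some of these classes by more than the SD of the library medians, which does not measure the spread between tiles. Other classes were alike, such as coding starts and exons in EpiSCs, at 17.4% ± 0.948 and 17.3% ± 0.939. The extremes are given here, and no difference was tested. The median ESC level was lowest within 1 kb of a coding start, at 2.31% ± 0.00940, and highest in exons, at 3.99% ± 0.0401 (SD, n = 2 each). The median EpiSC level ran from 15.5% ± 0.451 at other starts to 20.2% ± 0.793 between genes, with 17.4% ± 0.948 at coding starts. The median ASC level ran from 9.44% ± 0.457 at coding starts to 12.97% ± 0.663 between genes.

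**Figure D4:**
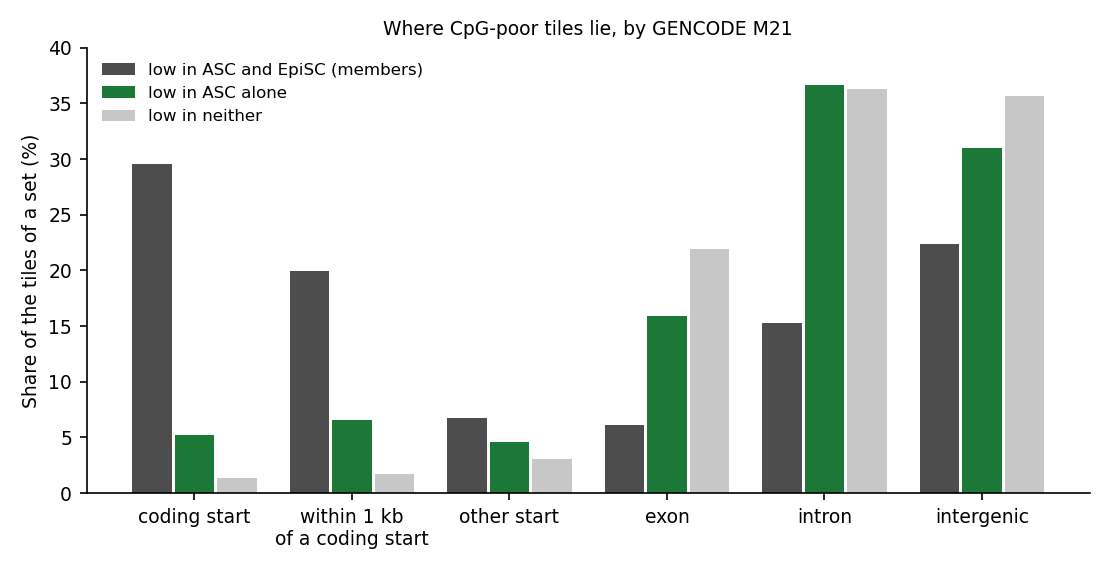
Share (%) of members, of tiles low in ASCs alone and of tiles low in neither that fall in each class of position. Coding starts and their first kb hold 29.5% and 19.9% of the members and 5.27% and 6.54% of the tiles low in ASCs alone, while introns and intergenic sequence hold most of the tiles low in neither.

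The 587 members in exons, introns and between genes held none of the starts counted here and had no protein-coding start within 1 kb. The starts counted were those of protein-coding transcripts in the GENCODE basic set, of non-coding genes and of tRNA genes. Starts of other transcripts of coding genes were not counted. They were 0.16% of the 366898 CpG-poor tiles in such places, at a median distance of 18098 bp from a coding start. Their median levels were 11.6% ± 0.131 for ASCs, 3.33% ± 0.0786 for ESCs and 19.5% ± 0.0647 for EpiSCs (SD, n = 2 each). Of these, 443 also had no adjoining tile of over 40 CpGs, and were at 10.9%, 3.20% and 19.9%. Members thus included many that held none of the counted starts and had no adjoining tile of over 40 CpGs.

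The genes of the pluripotency network were searched for members within 50 kb of their starts. Over all protein-coding genes of chromosomes 1 to 19 with a CpG-poor tile in that range, 2605 of 19936 (13.1%) had a member, and 684 (3.43%) had one within 1 kb. A member was present for 3 of 12 genes of naive pluripotency (Tfcp2l1, Tbx3 and Nanog) and for 4 of 11 genes of shared pluripotency (Pou5f1, Sox2, Lin28a and Lin28b). It was present for 6 of 15 primed and germ layer genes (T, Foxa2, Zic2, Lefty1, Lefty2 and Evx1) and for 7 of 17 developmental factors under Polycomb repression. Of the methylation machinery 6 of 11 genes had one, of the insulator and chromatin organisers 1 of 5, namely Ctcf, and of the genes every cell uses 0 of 6. The share of CpG-poor tiles in range that were members was 1.40%, 2.098%, 1.75%, 2.49%, 2.24%, 0.704% and 0% in the order given, and 0.476% around all coding genes. Within 1 kb of a start the lists had a member for 2 of 12, 2 of 11, 1 of 15, 0 of 17, 1 of 11, 0 of 5 and 0 of 6 genes in the same order, with none for the developmental factors. The lists were drawn up with earlier results of these data known. Nanog stands on the naive list here, while the study counts it with Pou5f1 and Sox2 as a core factor. The shared list also held Otx2, which the study reports as enriched in EpiSCs.

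The members of each list are described by whether their ASC and EpiSC libraries overlapped. Over all members, both ASC libraries lay below both EpiSC libraries in 57.8%, against 95.2% of all tiles, and the reverse held in 11.04%, against 0.639%. The first held in 4 of 6 members of the naive list, 1 of 6 of the shared list, 3 of 7 of the primed list, 0 of 11 of the developmental list and 8 of 9 of the methylation machinery, so that the naive and primed lists lay near the share of all members. The reverse held in 1, 0, 2, 7 and 0 of them. ASCs were called lower than EpiSCs in 2 members of the naive list and 2 of the methylation machinery, against 6.41% of all members and 53.5% of all tiles, and no member of these lists was called higher. Both calls of the naive list lay in range of Nanog, a core factor in the study, 1 of them 745 bp from the start of Slc2a3. No other gene of that list had such a call. Both calls of the methylation machinery lay in range of Uhrf1, at the start of Ticam1 and 511 bp from the start of Plin3. These levels chose the members, so the differences between lists were not tested.

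The member at Pou5f1, at chr17:35504001-35506000 and ending 18 bp upstream of its start, had the lowest mean of the members with at least 100 reads in every library. It was at 1.42% and 0% for ASCs, 0.298% and 0.325% for ESCs and 0% and 0.606% for EpiSCs, with 135 to 336 reads. The groups overlapped, and all 6 libraries were at the floor. This stretch holds the sequence just upstream of the gene, where its enhancers are known to lie.

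The members at Tfcp2l1 and Nanog were low in ASCs and ESCs and partly methylated in EpiSCs, while those of Tbx3 were divided. Tfcp2l1 encodes a transcription factor of naive cells, and its start lay in the member at chr1:118626001-118628000, with 0% and 0.592% for ASCs, 0% and 0.476% for ESCs and 15.4% and 16.7% for EpiSCs. Nanog is on the naive list here but counts as a core factor in the study. The member 433 bp from its start, at chr6:122708001-122710000, was at 3.39% and 2.61% for ASCs, 1.19% and 0.602% for ESCs and 19.2% and 32.7% for EpiSCs. In both, the EpiSC libraries lay above all others, and at Nanog they differed widely from each other. Tbx3, a T-box factor of naive cells, had 3 members in range. The one 10669 bp from its start was at 15.5% and 13.3% for ASCs, 2.63% and 5.08% for ESCs and 13.1% and 7.27% for EpiSCs. The one 4669 bp away was at 20% and 12.7%, 2.27% and 6.76%, and 14.3% and 2.27%. EpiSCs lay below ASCs in the first of these and overlapped with them in the second. The one 34983 bp away was at 4.64% and 6.25%, 0.935% and 0.629%, and 14.5% and 20.2%, with EpiSCs highest.

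Sox2 had a pair of adjoining members downstream of its start and another far downstream. The member at chr3:34654001-34656000, 3596 bp away and within the non-coding gene Sox2ot, was at 1.19% and 6.33% for ASCs, 0% in both ESC libraries and 21.2% and 25% for EpiSCs. The next, at chr3:34656001-34658000, was at 9.36% and 9.27% for ASCs, 4.79% and 3.33% for ESCs and 5.82% and 11.03% for EpiSCs, where ASCs and EpiSCs overlapped. The member at chr3:34756001-34758000, 105596 bp from the start and in the intergenic stretch known to hold the distal control region of Sox2, was at 0% and 3.16% for ASCs, 0% in both ESC libraries and 31.9% and 27.3% for EpiSCs. The sequence printed above from this member was the part with the most CpGs. It was under 5% in the EpiSC libraries as well, but on only 54 and 23 reads.

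Lefty1 and Lefty2 encode inhibitors of Nodal signalling. The start of Lefty1 lay in the member at chr1:180934001-180936000, with 5.77% and 3.70% for ASCs, 12.6% and 3.91% for ESCs and 21.2% and 18.6% for EpiSCs. The member 3108 bp from the start of Lefty2, at chr1:180888001-180890000, was at 0.546% and 0.952% for ASCs, 1.36% and 0% for ESCs and 19.02% and 21.4% for EpiSCs. EpiSC libraries were highest at both, and ASCs and ESCs were not separated. The other members of the primed and germ layer list did not all share this order. The member 4566 bp from the start of Zic2, a zinc finger factor, was at 23.7% and 22.5% for ASCs, 3.79% and 4.44% for ESCs and 20.3% and 7.80% for EpiSCs. Evx1, a homeobox gene, had a member 45498 bp away at 21.7% and 30%, 11.6% and 10.6%, and 14.3% and 15.6%, and another 41498 bp away at 9.22% and 13.5%, 3.21% and 1.86%, and 20.9% and 19.7%. Both lay nearer to the start of Hoxa13, at 5121 and 9121 bp from it. EpiSCs thus lay below ASCs at Zic2 and at the first Evx1 member, and above them at the second. At T, the mesoderm factor Brachyury, a member 24423 bp away was at 10.96% and 8.96%, 2.60% and 4.23%, and 29.4% and 10.4%. At Foxa2, an endoderm factor, a member 5032 bp away was at 23.4% and 11.7%, 7.14% and 1.72%, and 19.8% and 35.4%. ASCs and EpiSCs overlapped at both.

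At Lin28a, Lin28b and Tet3 the ASC level was nearer to that of EpiSCs. Lin28a and Lin28b encode RNA-binding proteins that block let-7 maturation. The member 1160 bp upstream of Lin28a, at chr4:134020001-134022000, was at 22.9% and 23.7% for ASCs, 6.45% and 7.14% for ESCs and 13.9% and 23.3% for EpiSCs. The member 201 bp from the start of Lin28b was at 11.5% and 7.41% for ASCs, 2.82% and 1.099% for ESCs and 14.7% and 3.797% for EpiSCs, and a second, 1800 bp away, at 15.2% and 16.2%, 4.82% and 8.78%, and 17.3% and 7.76%. Tet3 encodes a dioxygenase that oxidises methylcytosine, and the member 326 bp from its start was at 20.8% and 28.8% for ASCs, 7.69% and 5.62% for ESCs and 24.1% and 25.9% for EpiSCs. Both ESC libraries lay below all ASC and EpiSC libraries except at the second Lin28b member, where ESCs and EpiSCs overlapped, and the ASC and EpiSC libraries overlapped in all 4.

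**Figure D5:**
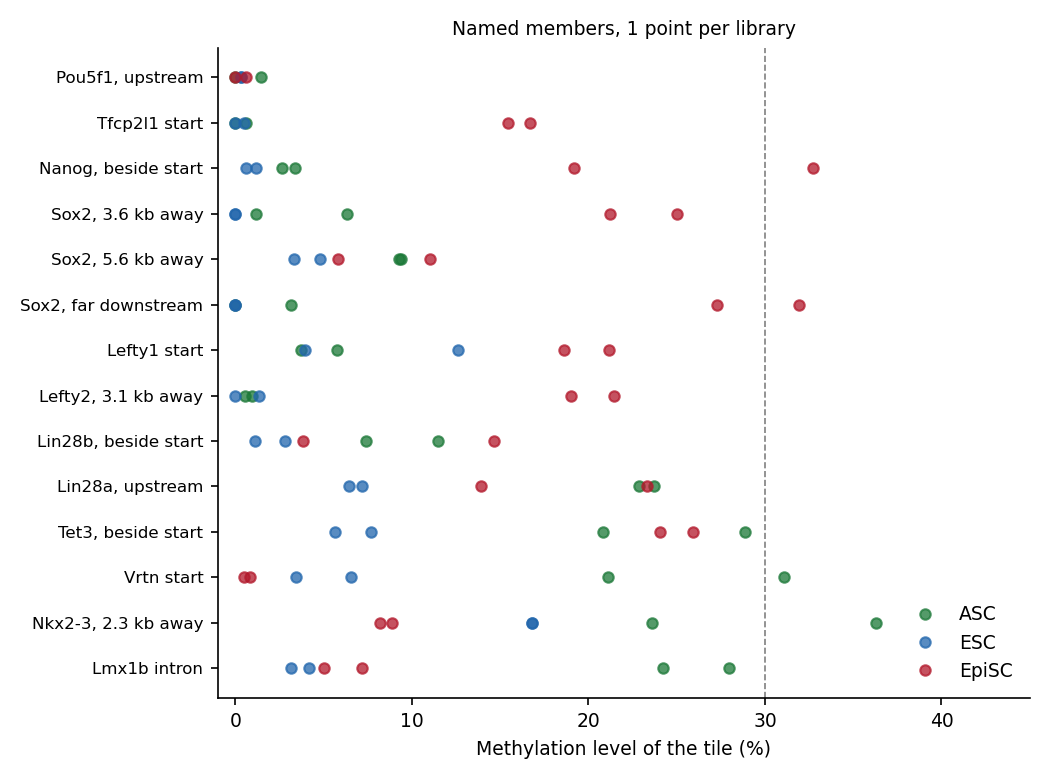
Methylation level (%) of 14 named members, 1 point per library, with the limit of 30% for the group means as a dashed line. The members from Pou5f1 down to Tet3 belong to the gene lists apart from the far downstream one of Sox2, and the last 3 are among the 6 members with ASCs furthest above EpiSCs, where both ASC points lie right of the EpiSC points.

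The largest excess of EpiSCs over ASCs was found in 6 members, named here because of that difference, which is a description. The member within Dennd5b, at chr6:148992001-148994000, was at 0% in all ASC and ESC libraries and at 31.9% and 26.8% in EpiSCs, with 47 to 94 reads. The member near B3gnt7, a glycosyltransferase gene, was at 1.57% and 0% for ASCs, 3.75% and 5.06% for ESCs and 31.6% and 26.2% for EpiSCs. The member 511 bp from the start of Plin3, which encodes a lipid droplet protein, was at 2.06% and 1.92%, 0.885% and 1.01%, and 27.5% and 31.7%. The others were the far downstream member of Sox2, the start of Gm10203 and an intron of Chn2, a Rac GTPase regulator. In all 6 the ASC libraries were at or under 3.16% and the EpiSC libraries at or above 25.6%.

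The largest excess of ASCs over EpiSCs, again the difference that named these members, was found in 6 others, of which 4 are described. The member with the start of Vrtn, at chr12:84640001-84642000, was at 21.1% and 31.1% for ASCs, 3.41% and 6.54% for ESCs and 0.469% and 0.816% for EpiSCs. There both EpiSC libraries also lay below both ESC libraries. The member 2325 bp from the start of Nkx2-3, a homeobox gene, was at 23.6% and 36.3% for ASCs, 16.8% in both ESC libraries and 8.20% and 8.89% for EpiSCs. An exon of Larp7 and an intron of Lmx1b, a limb homeobox gene, were among the others. At Vrtn, Nkx2-3 and Larp7 the ASC replicates differed by more than their average over all members. The differences at Larp7 and Nkx2-3 lay close to 20 points and fell to 19.82 and 19.99, just under it, when every library was thinned to the depth of the shallowest.

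Members with the highest ESC level showed that ESCs were not free of methylation everywhere in the set. The highest, at chr9:63534001-63536000 in Iqch, was at 20.4% and 15.9% in ESCs, 15.8% and 19.1% in ASCs and 11.2% and 8.45% in EpiSCs, so that ESCs were at the level of ASCs. The member on chromosome 16 far from any coding start, with Robo1 the nearest, was at 15.5% and 18.6% in ESCs, 26.9% and 27.8% in ASCs and 27.6% and 30.95% in EpiSCs. The others lay near Idi2, Cgrrf1, Nkx2-3, Auts2, Sox6 and Dlx2, with ESC means of up to 17.1%. ESC replicates near Idi2 were at 10.7% and 23.4%, so its place in this order rests on 1 library.

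The lowest members after Pou5f1 held the start of 1700008O03Rik, the start of Dst, which encodes a cytoskeletal linker, the start of a non-coding gene on chromosome 15, an exon of 3930402G23Rik and sequence 295 bp from the start of Atr, a DNA damage kinase. Their means over the 6 libraries ran from 1.04% to 2.03%, and no single library of any of them was above 4.76%.

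Of the 7 members on the developmental list with both EpiSC libraries below both ASC libraries, 4 lay in range of Dlx5, and Pax3 and Lhx2 were among the others. The member nearest to Dlx5, a homeobox gene, was 1916 bp from its start, at 23.5% and 35.2% for ASCs, 10.5% and 9.17% for ESCs and 23.4% and 20.8% for EpiSCs. In the member 10068 bp away the ASC libraries were at 25.4% and 22.0% and the EpiSC libraries at 13.04% and 5.88%. The member within Pax3, which encodes a neural crest factor, was at 21.9% and 16.2% for ASCs, 8.74% and 10% for ESCs and 5.19% and 8.47% for EpiSCs, and the member 2759 bp from the start of Lhx2 at 14.1% and 21.2%, 8.74% and 10.4%, and 10.4% and 6.34%. At the nearest Dlx5 member the gap between the groups was smaller than the spread between the ASC replicates. The member near Six2 was at 17.1% and 11.1% in ASCs and 14.8% and 17.6% in EpiSCs, which overlapped.

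The 8 members on the list of the methylation machinery with ASCs below EpiSCs included Dnmt3b and Tet1. The member 5450 bp from the start of Dnmt3b, a de novo methyltransferase, was at 3.77% and 7.87% for ASCs, 1.04% and 1.19% for ESCs and 23.0% and 18.5% for EpiSCs. Another, 9450 bp away, was at 25.7% and 26.6%, 1.67% and 4.17%, and 32.4% and 27.3%, with ASCs and EpiSCs much closer. The member within Tet1, which like Tet3 encodes a dioxygenase, was at 6.88% and 4.93%, 1.43% and 2.37%, and 22.6% and 10.2%. The EpiSC replicates at Tet1 were far apart. The 2 members within 50 kb of Uhrf1 belong by distance to Plin3 and Ticam1, and the one in range of Trim28 held the start of Zfp446. Those in range of Zfp57 held the start of Ppp1r11 or lay nearest to Mog. Being in range of a start thus does not tie a member to that gene.

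CTCF and REST matches were found in a larger share of members than of all CpG-poor tiles, each 2 kb long and searched on both strands, a difference that was not tested. A CTCF core match was present in 43 members (3.21%), against 1.70% of all CpG-poor tiles and 3.89% of tiles low in ASCs alone. Within 100 bp of a match the members were at 5.84% ± 0.440 for ASCs, 1.58% ± 0.308 for ESCs and 7.21% ± 0.282 for EpiSCs (SD, n = 2 each), and in the rest of these tiles at 14.8%, 4.43% and 19.05%. Over all 6670 CpG-poor tiles with a match, the sequence near it was at 27.9%, 7.30% and 51.5% and the rest at 57.1%, 17.996% and 86.5%. Lower methylation near a CTCF match was thus present outside the members as well. A REST match was present in 5 members (0.373%), against 0.0394% of all CpG-poor tiles and 0.175% of tiles low in ASCs alone. They lay near Snap25, Gm39653, Mat2b, Lin28a and Tnr, of which Snap25 and Tnr are genes of the nervous system.

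Other motifs differed with position. The Ets motif CCGGAAGT was present in 5.22% of members against 1.95% of CpG-poor tiles, in 10.4% of the members with a coding start against 3.15% of CpG-poor tiles with one, and in 2.39% against 1.899% away from starts. The Nfy motif CCAATCAG was present in 9.32% of members against 7.33%, and in 14.9% against 8.41% at coding starts. The octamer ATGCAAAT, bound by Pou5f1 and its relatives, was present in 13.05% of members against 10.6%, and in 14.3% against 10.7% away from starts. Nrf1 (GCGCATGCG) was present in 0.820% of members against 0.485%, in 2.02% against 0.779% at coding starts and in 0% against 0.479% away from starts. Yy1 (AAGATGGCG) was present in 1.72% against 1.76%, but in 3.28% against 1.06% at coding starts and in 1.02% against 1.77% away from starts. Zic (CACAGCAGG) was present in 6.56% against 5.93%, and in 5.30% against 7.23% at coding starts and 8.69% against 5.93% away from them. Shares were closer for Esrrb (TCAAGGTCA), with 5.29% against 5.69%, E-box (CACGTG), with 24.3% against 26.5%, and AP-1 (TGANTCA), with 41.3% against 46.5%. In tiles low in ASCs alone the shares were 3.09% (Ets), 7.17% (Nfy), 12.2% (octamer), 0.805% (Nrf1) and 1.16% (Yy1). They were 7.81% (Zic), 8.39% (Esrrb), 27.2% (E-box) and 45.9% (AP-1) for the others. None of these differences was tested. The Ets, Nrf1, Yy1 and E-box motifs contain CpGs, and members held a median of 32 CpG positions against 22 in all CpG-poor tiles. No background matched for the number of CpGs was used. A match says only that these letters stand in the tile.

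Genes for transfer RNAs, which RNA polymerase III transcribes from a promoter inside the gene, were held by 17 members, a class singled out after its values were seen. RefSeq places a tRNA gene in 90 CpG-poor tiles, of which these 17 (18.9%) were members, 36 were low in ASCs alone and 37 in neither. The sequences of 3 of these genes are shown because they carry that inner promoter. They are read 5′ to 3′ on the gene's strand, and the capitals mark the B box letters GTTCGANNC, an element bound by a polymerase III transcription factor.
n-TLcag10, chr13:23453432-23453514, minus strand: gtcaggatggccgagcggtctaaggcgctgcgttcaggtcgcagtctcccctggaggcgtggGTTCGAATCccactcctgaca
n-TDgtc13, chr13:21935497-21935568, minus strand: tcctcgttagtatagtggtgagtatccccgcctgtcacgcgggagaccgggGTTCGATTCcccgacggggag
n-TSaga1, chr13:21937094-21937175, minus strand: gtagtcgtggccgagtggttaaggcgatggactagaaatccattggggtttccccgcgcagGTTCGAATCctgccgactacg

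The B box letters were present in 15 of the 17 members with a tRNA gene, in 9.92% of all members and in 11.96% of all CpG-poor tiles. The gene n-TSaga1 was at 0% in both ASC libraries, 0% and 3.70% in ESCs and 0% and 5% in EpiSCs, with 6 to 40 reads, and the other 2 genes shown held no methylated read out of 3 to 13 reads per library. The pooled level of the 17 members was 8.83% and 9.15% in the ASC libraries, 2.82% and 2.42% in the ESC libraries and 16.1% and 13.8% in the EpiSC libraries. Of the 17, 14 lay on chromosome 13 between 21 and 24 Mb, in the region of the major histone gene cluster. The member at chr13:21214001-21216000 with n-TRccg3 was the highest, at 29.5% and 27.1% for ASCs, 8% and 7.77% for ESCs and 30% and 24.04% for EpiSCs, and the adjoining members with n-TDgtc13 and n-TSaga1 were among the lowest, at or under 2.73% in ASCs and 11.7% in EpiSCs.

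Starts of zinc finger genes named Zfp, singled out in the same way, were held by 46 members out of 153 CpG-poor tiles with such a start (30.1%). Another 31 of these tiles were low in ASCs alone and 75 in neither. Many Zfp genes encode KRAB zinc finger proteins, which bind and silence transposable elements, and they lie in clusters of recent copies whose reads can be hard to place. The pooled level of these members was 9.41% and 8.66% for ASCs, 2.58% and 2.68% for ESCs and 15.4% and 15.6% for EpiSCs. Chromosome 17 held 14 of them, chromosome 13 held 11 and chromosome 7 held 7. By contrast none of the 204 CpG-poor tiles with the start of an olfactory receptor gene (Olfr) was a member, and 202 of them were low in neither.

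Members were spread over 794 windows of 1 Mb, with 1 member in 495 of these and 5 or more in 21. The fullest windows were looked up after their values were seen, and no number expected by chance was computed. The fullest was on chromosome 13 from 21 to 22 Mb, with 15 members, of which 10 held a tRNA gene. The windows from 67 to 68 Mb on chromosome 13 and from 21 to 22 Mb on chromosome 17 held 13 and 9 members, and 11 and 9 of these held a coding start, nearly all of Zfp genes. The window from 74 to 75 Mb on chromosome 13 held 11 members, 3 of them with a coding start, near Cast, Erap1, Sdha and Zfp825, with medians of 10.9% for ASCs, 3.38% for ESCs and 18.8% for EpiSCs. On chromosome 15, from 102 to 103 Mb, 10 members lay near genes that include Hoxc8, Hoxc10, Hoxc11 and Hoxc13, homeobox genes of the body axis, with medians of 13.8% for ASCs, 5.64% for ESCs and 15.9% for EpiSCs. All 7 members from 165 to 166 Mb on chromosome 2 had Zmynd8 as their nearest coding gene, with medians of 2.25%, 0.893% and 18.8%. By chromosome, the share of CpG-poor tiles that were members ran from 0.245% on chromosome 5 to 0.575% on chromosome 13.

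Membership depended on where the grid starts. With the grid moved by 1 kb, 1389 tiles met the rule, and 425 of the original members (31.7%) overlapped one of them. For 604 others (45.04%) an overlapping tile was low but over the CpG limits, for 302 (22.5%) neither overlapping tile was low in both groups, and for 10 reads were too few. Most members without an overlapping member thus had an overlapping tile that was still low and held or adjoined too many CpGs. The pooled levels after the shift were 11.7% for ASCs, 3.42% for ESCs and 18.4% for EpiSCs, of which the first and the last are held low by the rule on both grids.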

How the data were processed

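Post-bisulfite adaptor tagging libraries were made from 6 samples, 2 per group. As the study's methods state, the authors trimmed reads with Trim Galore, aligned them to GRCm38 (mm10) with Bismark 0.16.3, removed duplicates and called CpGs with MethPipe (version not stated here). The submitters' processing notes also name mm9, but the positions fell on CpGs of GRCm38. The deposited tables hold, for each CpG, the methylation level as a fraction and the coverage as a count of reads, both made by the authors. Read length differs between the sources. The labels give strain 129S2/SvPasCrl and the methods a cross with mixed-background fathers. The reference is another strain, so a C-to-T difference would read as unmethylated.

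Methylated reads were rebuilt as level times coverage, rounded, and summed over tiles of 2 kb. A read thus counted once at each CpG it covered. The members and the lists were chosen with earlier results of these data known. For calls, a quasi-binomial model was fitted to each of 445422 tiles, with dispersions moderated by squeezeVar of limma 3.58.1 (R 4.3.3) and a two-sided F test, Benjamini-Hochberg adjusted over all tiles. A call needed an adjusted p under 0.05 and a difference of at least 20 points. Intervals are 95% Wilson intervals (statsmodels 0.14.6), and a count of 0 was given an upper limit of 3 reads. Other steps used Python 3.11.15, numpy 2.4.6, pandas 2.3.3 and matplotlib 3.10.9. Genes came from GENCODE M21 and tRNA genes from RefSeq.

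Named members were those with the 8 highest ESC means, the 6 largest differences between ASCs and EpiSCs in each direction, the 6 lowest means at 100 reads or more, the 3 longest runs, the 3 tiles on each side of the limit, those at or nearest to starts of listed genes, and those with a CTCF or REST match and most reads. Others within 50 kb of listed genes, tRNA and Zfp members, crowded windows and the far Sox2 and Pax3 examples were described after values were seen. Alternatives changed the limits, the grid, the depth, the model and the libraries. Some named members are not reported here.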

Additional observations from a re-analysis of the deposited data

How the results depend on the processing

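The number of members followed its limits. Against 1341 in the main rule there were 633 at a level limit of 20%, 2370 at 40%, 534 with at most 30 CpG positions, 88 with at most 20, 531 with at least 100 reads in every library, and 807 without tiles adjoining one of over 40 positions. Leaving out 1 ASC or EpiSC library gave 1331 to 1373. The pooled ASC level of 11.8% became 11.6% at 100 reads, 10.6% as an unweighted median and 12.4% without coding starts within 2 kb. The ESC level of 3.58% became 2.83% as a median, 3.99% without coding starts and 3.42% with the grid moved by 1 kb, and the EpiSC level of 18.5% became 19.2% at 100 reads. The share of members with a CTCF match in the lowest window of 500 bp, 1.27%, has no background of windows picked in the same way and is not set against the 3.21% over 2 kb.

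Members called for ASC against ESC, EpiSC against ESC and ASC against EpiSC numbered 65, 389 and 92. They became 892, 1201 and 690 with no minimum difference, 494, 958 and 517 at 10 points, and 22, 157 and 38 at 100 reads, where only 531 members remained. Shares over all tiles were not counted at these settings. Leaving out 1 library gave 73 to 98, 368 to 405 and 104 to 121, with 98 without ASC replicate 1. The replicate block and limma on M values gave 65, 389 and 92 again. That says little about the fits, since the minimum difference alone decides these calls. By adjusted p alone the replicate block gave 899, 1199 and 695, and limma 1000, 1216 and 595. Deviations of same-numbered libraries were nearly uncorrelated from tile to tile, at -0.00617 to 0.00232 over all tiles. A shift common to all tiles does not enter these correlations. They therefore do not settle whether the libraries were prepared in pairs.

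With 2 libraries per group and 104 to 132 reads in a median member, levels of single members carry intervals of several points, and groups of 2 allow no check for a single deviating library.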

Other observations

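Chromosome X was outside the rule. Of its 3255 CpG-poor tiles, 1 (0.0307%) met the limits of the members, against 0.341% on chromosomes 1 to 19. That tile was at 0.704% ± 0.996 for ASCs, 1.41% ± 1.99 for ESCs and 19.4% ± 1.55 for EpiSCs (SD, n = 2 each). Few tiles of chromosome X entered. Chromosome 14 had 15548 CpG-poor tiles, with 938590 CpG positions against 969411 on chromosome X. All CpG-poor tiles of chromosome X had medians of 67.3%, 21.9% and 89.6%.

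CpGs of the mitochondrial genome were at 41.1% to 49.3% in the 6 libraries, with 14436 to 27417 reads each. The members at the floor had far lower levels in the same libraries, and the source of the mitochondrial values was not tested.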
